A study of Mus musculus with 2 samples.

Results

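The 10 genes described here are Trp53, which encodes p53, and 9 genes that inhibit p53 or are transcribed under its control, namely Mdm2, Mdm4, Ppm1d, Ccng1, Trp53inp1, Zmat3, Sesn1, Phlda3 and Eda2r. They were taken by gene symbol from tables of 34745 genes, and all 10 were found. The rule uses no measured value, but the genes were chosen with earlier results of these data known. RNA-seq had been performed on BM LSKs (Sca1+ c-Kit+ cells without lineage markers, which hold the hematopoietic stem and early progenitor cells) of Scl/tTA-BA mice on a C57BL/6 background. These mice carry a tetracycline-regulated BCR/ABL (BA) transgene and a transactivator, tTA, that is driven by regulatory sequence of Scl, a gene of early blood cells, and turns BA on when doxycycline is taken away. Mice of the week-0 library were on doxycycline, and those of the week-3 library had been without it for 3 weeks. Both groups carried both transgenes, so the libraries differ in doxycycline as well as in BA. Each library was made from LSKs of 3 mice mixed together, the ages of which are not given in the sources used here, and whether every LSK of the week-3 library expressed BA was not measured in it. In Scl/tTA-GFP mice followed in parallel, the authors found GFP in none of the LSKs at week-0 and in only a part of them at week-3. By qRT-PCR of LSKs, they found BA to be higher at week-3. With 1 library per time point the spread between mice is unknown, no test of the time points is possible, and each difference below is a difference between these 2 libraries.

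p53 is a transcription factor that is held at a low protein level by Mdm2, a ubiquitin ligase, and by its relative Mdm4, which binds and blocks p53. DNA damage and other stresses release p53 from these inhibitors, and it then raises the transcription of genes for cell cycle arrest, cell death, DNA repair and metabolism, and of Mdm2 itself. In hematopoietic stem cells p53 is known for its part in quiescence and in the response to DNA damage. Because p53 is regulated mostly as a protein, the mRNA of Trp53 is not a measure of its activity.

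p53 binds DNA as a tetramer through tandem copies of a short motif, the p53 response element. A gapless pair of these motifs, with at most 2 mismatches outside the central C and G of each copy, was searched in the promoters of RefSeq (GRCm38.p6), which run from 250 bases before to 50 bases after a gene start. The element is palindromic, so a search of 1 strand covers both. Of 27025 gene symbols with a promoter, 106 (0.392%) held such an element, and Ccng1 was the only member to hold 1 among the 8 members whose promoter was listed (all but Trp53inp1 and Zmat3). The elements of Ccng1 and of the 3 other p53 targets in the lists below that held one are shown because they let the values of these genes be read beside the sequence. Each is 20 bases long, is given from 5′ to 3′ on the strand of its gene, and has the 4 central bases of each motif copy in capitals.
Ccng1: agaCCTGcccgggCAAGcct
Cdkn1a: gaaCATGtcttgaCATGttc
Gtse1: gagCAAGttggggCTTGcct
Rps27l: gggCTTGttgagaCTTGtcc
The Ccng1 element lay at chr11:40755462-40755481 on the minus strand and began 195 bases before the RefSeq gene start. That of Cdkn1a was at chr17:29090928-29090947 on the plus strand, that of Gtse1 at chr15:85859945-85859964 on the plus strand and that of Rps27l at chr9:66946296-66946315 on the plus strand. These began 51 bases, 1 base and 117 bases before the RefSeq gene start. All 4 elements had 1 mismatch to the motif. A match is a description of the letters in this window, and elements farther away or inside genes were not searched.

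Reads on genes totalled 6356164 for week-0 and 3886695 for week-3, so that 3 reads, taken as the floor, equalled 0.472 and 0.772 reads per 1000000. Pairs of values are given for week-0 first and week-3 second. Kit, the gene for c-Kit, had 1391 and 580 reads, and Ly6a, the gene for Sca1, had 434 and 199. Of 7 sort and stem cell markers, 1 (Slamf1, 10 and 15 reads) was at least 2-fold higher and 2 (Flt3 and Procr) at least 2-fold lower at week-3. These were 14.3% and 28.6% of the list. Of all genes with at least 10 reads over both libraries, 11.9% were at least 2-fold higher and 17.9% at least 2-fold lower. Lineage-positive cells had been removed by depletion and by the sort gate. All 10 mast cell markers were at least 2-fold higher at week-3 (summed level 184 reads per 1000000 at week-0 and 4159 at week-3), with Mcpt4 and Tpsb2 at 0 reads at week-0. Of the neutrophil and monocyte markers, 6 of 10 were at least 2-fold higher at week-3 (460 and 1265 reads per 1000000). All 9 erythroid markers found were at least 2-fold lower at week-3 (1034 and 73.8 reads per 1000000), as were 6 of the 7 B and plasma cell markers with at least 10 reads (919 and 82.6 reads per 1000000 over the whole list). Cd22, with 1 and 0 reads, was under the floor in both libraries. T cell markers had under 10 reads over both libraries, except Lck and Trac, and summed to 56.2 and 28.8 reads per 1000000. Megakaryocyte markers summed to 382 and 252 reads per 1000000. Among the megakaryocyte markers, 2 of 8 (25%) were at least 2-fold lower, where 17.9% of all genes were. The share of reads on immediate-early genes was 4.11% and 1.21%, and all 15 had an interval below no change, where 27.3% of all genes did. Mitochondrially encoded genes took 1.24% and 2.16% of the reads. The mouse Bcr and Abl1 rows had 371 and 395 reads in the former library and 108 and 144 in the latter, and the transgene itself was not analysed here. In such bulk libraries, fewer cells of a type and less RNA per cell cannot be told apart, and the part of these differences in the results below was not tested.

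Of the 10 genes, Phlda3 had by far the largest difference, with an FPKM 6.55-fold lower at week-3, and the ratios of 8 others lay between 0.682 and 1.48. FPKM (fragments per kilobase of gene length, scaled by the reads counted on genes) was used for every difference. Of the 9 members with at least 10 reads over both libraries, 1 had an FPKM ratio of at most 0.5, where 17.9% of the 13689 genes with that many reads did. None had a ratio of at least 2, against 11.9% of all such genes. The 95% counting interval, which holds only the error of counting reads and takes each read of amplified cDNA as a separate molecule, lay wholly below no change for 3 members (Phlda3, Mdm2 and Trp53), where 27.3% of all genes did. It lay wholly above no change for none, where 31.7% of all genes did. The counts of lower members are thus close to the shares over all genes. The median log2 ratio of week-3 over week-0 was -0.05 over the 9 members and 0.05 over all 13689 genes. TMM scaling moved the log2 ratio of every gene by -0.11 and median-of-ratios scaling by -0.09. With either scaling, the 9 members split into 2 above and 7 below no change in place of 4 and 5, since Mdm4 and Ppm1d changed sign.

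**Figure D1:**
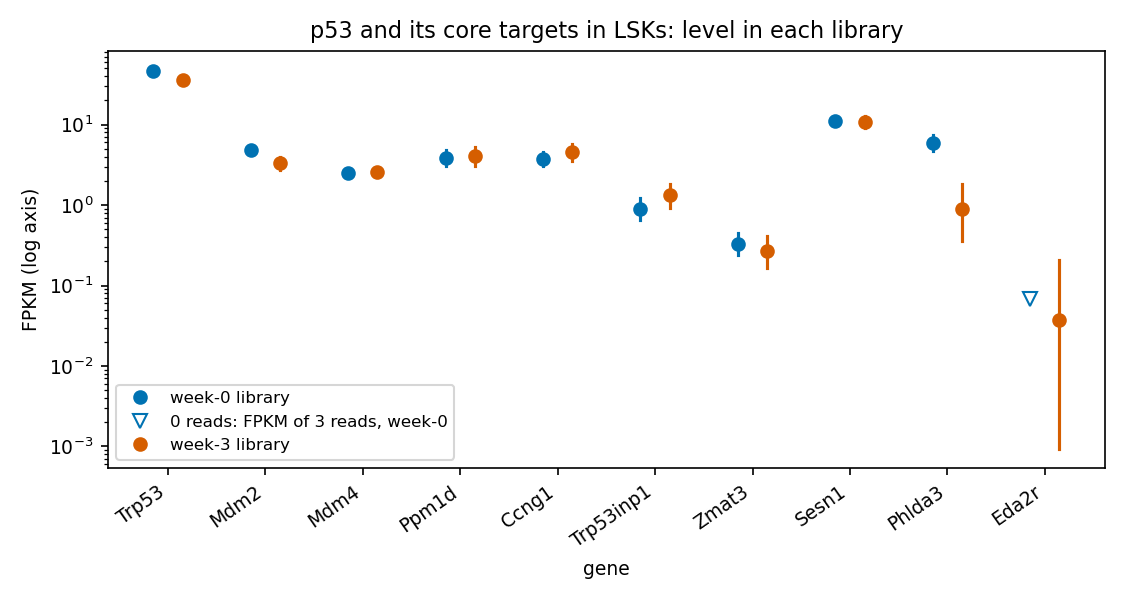
FPKM (log axis) of each of the 10 genes in the week-0 and week-3 libraries, with exact Poisson 95% intervals of the reads as lines, and the open triangle for a library at 0 reads placed at the FPKM of 3 reads. Trp53 was the highest in both libraries, and the points of Phlda3 stand apart, at 5.89 at week-0 and 0.899 at week-3.

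By counting error alone, the factor and 1 of its inhibitors, Mdm2, were lower at week-3, whereas no difference was detectable for the other, Mdm4. Trp53 (ENSMUSG00000059552, plus strand of chromosome 11 of GRCm38, from 69580359 to 69591873) was covered by 2079 reads in the first library and 975 in the second, with an FPKM of 46.0 and 35.3. It was lower at week-3, at 0.767 times the level of week-0, with a log2 ratio of -0.38 (95% interval -0.49 to -0.27). The interval is narrow because Trp53 had the most reads of the members, and with an assumed biological coefficient of variation of 0.1 in each library it reached from -0.80 to 0.03. Its neighbour Wrap53, which is read from the opposite strand and whose start lies 103 bases from that of Trp53, was higher at week-3, with 145 and 149 reads and a log2 ratio of 0.75 (95% interval 0.41 to 1.09). No exon of any of the 10 members overlapped an exon of another gene in GENCODE M21, so the missing strand information does not mix their exons with those of annotated neighbours.

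Mdm2 (ENSMUSG00000020184, minus strand of chromosome 10, from 117688888 to 117710758) is both the main inhibitor of p53 and its target. Its FPKM was 4.86 from 302 reads at week-0 and 3.31 from 126 reads at week-3. Its level at week-3 was lower, at 0.682 times that of week-0 (log2 ratio -0.55, 95% interval -0.86 to -0.25). Mdm4 (ENSMUSG00000054387, minus strand of chromosome 1, from 132959484 to 133030561), which binds p53 without being a strong ubiquitin ligase on its own, was counted 384 times at week-0 and 243 times at week-3. Its FPKM was 2.48 and 2.57, a log2 ratio of 0.05 (95% interval -0.19 to 0.29), so no difference was detectable and a difference of 2-fold in either direction lay outside the interval. Per 100 Mdm4 reads, there were 78.6 Mdm2 reads at week-0 against 51.9 at week-3. This ratio within a library does not depend on scaling, and it was lower at week-3, at 0.660 times (exact conditional 95% interval 0.502 to 0.864). That interval, too, holds counting error only. With an assumed biological coefficient of variation of 0.1, the intervals of the log2 ratios overlapped (-1.05 to -0.05 for Mdm2 and -0.41 to 0.51 for Mdm4).

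Feedback on p53 is also given by 2 further targets, Ppm1d and Ccng1. Ppm1d (ENSMUSG00000020525, plus strand of chromosome 11, from 85311244 to 85347066) encodes the phosphatase Wip1, which removes activating phosphates from p53 and from the kinases upstream of it. It had 81 reads at week-0 against 52 at week-3, with FPKM of 3.85 and 4.04 and a log2 ratio of 0.07 (95% interval -0.46 to 0.59). Ccng1 (ENSMUSG00000020326, minus strand of chromosome 11, from 40748552 to 40755311) encodes cyclin G1, which brings the phosphatase PP2A to Mdm2. Its reads were 103 and 76 and its FPKM 3.75 and 4.53, a log2 ratio of 0.27 (95% interval -0.18 to 0.71). Ccng1, the only member with a response element in its promoter by the search above, was thus within counting error of the same level in both libraries, and so was Ppm1d.

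Trp53inp1 and Zmat3 encode effectors of p53. Trp53inp1 (ENSMUSG00000028211, plus strand of chromosome 4, from 11156431 to 11174379), whose product acts in the nucleus with p53 and in autophagy, had 41 reads at week-0 against 37 at week-3. Its FPKM was 0.897 and 1.32, the highest ratio of the 9 members, with a log2 ratio of 0.56 and an interval that held no change (95% interval -0.12 to 1.24). Zmat3 (ENSMUSG00000027663, minus strand of chromosome 3, from 32334792 to 32366014) encodes a zinc finger protein that binds RNA. It had 40 and 20 reads, an FPKM of 0.331 and 0.271, and a log2 ratio of -0.29 (95% interval -1.14 to 0.52). At this depth, neither gene could be called different, and a difference of 2-fold lay inside both intervals.

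Among the targets that act on signalling, Phlda3 was lower at week-3, whereas no difference was detectable for Sesn1. Sesn1 (ENSMUSG00000038332, plus strand of chromosome 10, from 41810574 to 41908424) encodes sestrin 1, a restraint on mTORC1. It had 236 reads at week-0 against 139 at week-3, with FPKM of 11.2 and 10.7 and a log2 ratio of -0.05 (95% interval -0.37 to 0.25). Phlda3 (ENSMUSG00000041801, plus strand of chromosome 1, from 135766119 to 135769136) encodes a small pleckstrin homology protein that competes with Akt for membrane lipids and so restrains Akt. Its FPKM was 5.89 from 75 reads at week-0 and 0.899 from 7 reads at week-3. The week-3 level was lower, with a log2 ratio of -2.71 (95% interval -4.07 to -1.60), and 3.56% of the 13689 genes had a lower ratio than Phlda3. The 7 reads at week-3 leave the size of the difference uncertain, from a ratio of 0.0593 to 0.330, and with a pseudocount of 1 FPKM the log2 ratio was -1.86. Per 100 Sesn1 reads there were 31.8 Phlda3 reads at week-0 against 5.04 at week-3, a ratio that does not depend on scaling and was lower at week-3, at 0.159 times (exact conditional 95% interval 0.0601 to 0.357).

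Eda2r (ENSMUSG00000034457, minus strand of chromosome X, from 97333840 to 97377216), a receptor of the TNF receptor family for ectodysplasin A2, was counted 0 times at week-0 and once, by 1 read, at week-3. Both counts are at or under the floor of 3 reads, which equals an FPKM of 0.0675 at week-0 and 0.110 at week-3. No ratio is given for it, and it was left out of the counts and medians above.

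**Figure D2:**
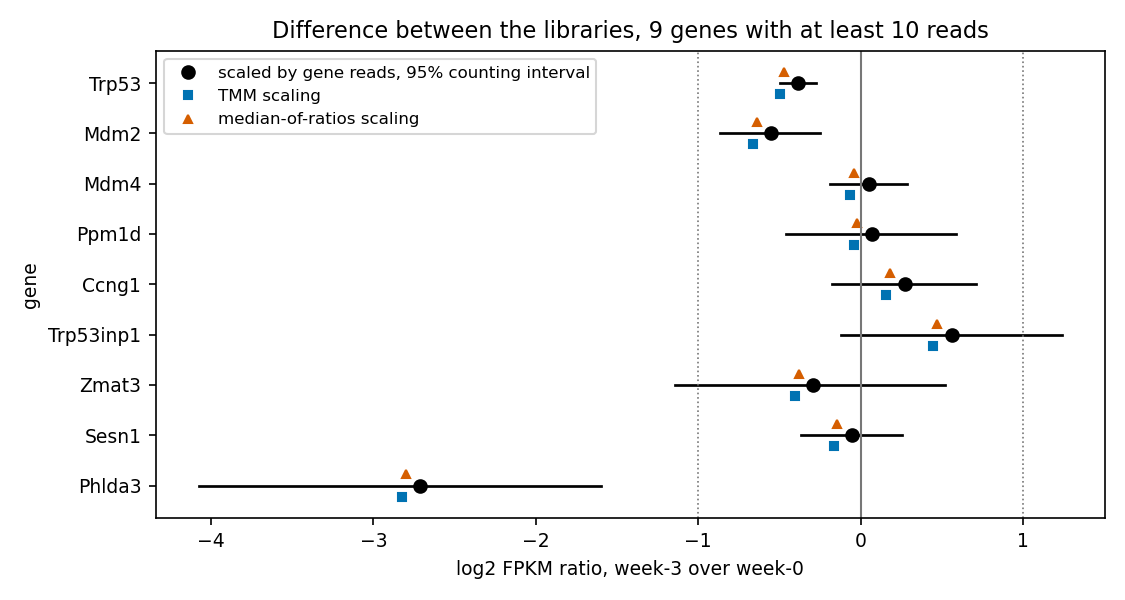
Log2 FPKM ratio of week-3 over week-0 for the 9 members with at least 10 reads over both libraries, with exact Clopper-Pearson 95% counting intervals as lines and the ratios under 2 other scalings as squares and triangles. Phlda3 alone lies beyond the dotted line at a ratio of 0.5, and the intervals of 6 members hold no change.

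The place of the members among all genes was also examined. The log2 ratio of Mdm4 lay near the middle, with 50.1% of the 13689 genes below it, and those of Sesn1 and Ppm1d had 45.3% and 51.0% of genes below. Trp53 and Mdm2 lay lower, with 32.7% and 27.7% of genes below their ratios, and Zmat3 had 35.9%. Ccng1 and Trp53inp1 lay higher, with 61.1% and 74.5% of genes below. The ratios of 8 of the 9 members were therefore in the part of the distribution where most genes lie, between the limits of 0.5 and 2.

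**Figure D3:**
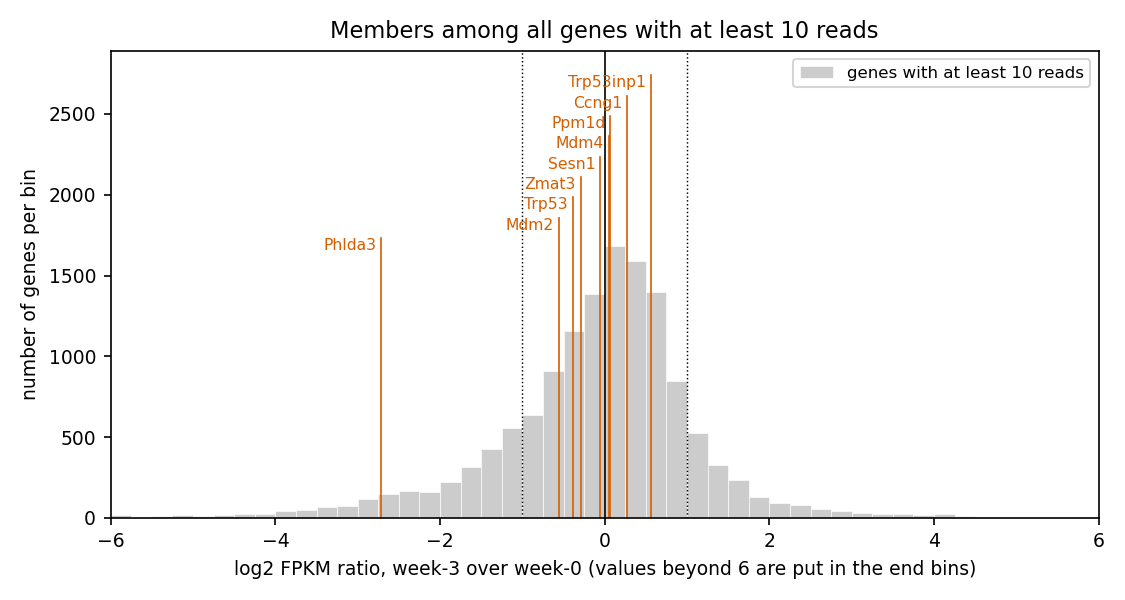
Histogram of the log2 FPKM ratio of week-3 over week-0 for 13689 genes with at least 10 reads (number of genes per bin), with the 9 members as vertical lines and the limits of 2 and 0.5 dotted. Of the members, 8 fall in the central part between the limits and Phlda3 lies in the lower tail.

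Levels were compared between genes only per length. By FPKM, Trp53 was the highest of the 10 in both libraries and above 92.2% of the 13689 genes at week-0 and 89.5% at week-3. Sesn1 came next in both libraries, and Zmat3 and Eda2r were the lowest, with overlapping intervals at week-3. At week-0, Phlda3 and Mdm2, Mdm2 and Ppm1d, and Ppm1d and Ccng1 were neighbours in the order whose Poisson intervals overlapped. At week-3, the order after Sesn1 was Ccng1, Ppm1d, Mdm2 and Mdm4, and each of these overlapped with the next. Trp53inp1 came next, with an interval below that of Mdm4, and its interval overlapped with that of Phlda3, as did those of Phlda3 and Zmat3. Phlda3 went from the third place at week-0 to the eighth at week-3.

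The length behind the FPKM matters for this order, although not for any ratio between libraries. It was recovered from reads and FPKM, and it exceeded the merged exon length of GENCODE M21 in 11451 of the 14685 genes with reads and several overlapping transcripts. For Ccng1 (4316 bases) and Phlda3 (2004 bases) it equalled the sum of all transcript lengths, in which shared exons count more than once. This held for 1091 of the 14685 genes and for no other member, so the rule behind the lengths is not known. For Mdm4 it was 24367 bases against 14798 bases of merged exons, for Trp53 7108 against 4045 and for Mdm2 9785 against 5083, whereas for Sesn1 it was shorter, at 3327 against 3982. With merged exon lengths, a scale chosen after seeing the data, Trp53 was at an RPKM of 80.9 at week-0 and 62.0 at week-3, again the highest. On that scale Mdm2 (9.35) and Sesn1 (9.32) had overlapping intervals at week-0, as did Mdm4 (4.08) and Ppm1d (4.02), and Trp53inp1 (0.996) and Zmat3 (0.550). The order among the middle genes is therefore not settled, whereas that of Trp53 above all others and of Trp53inp1, Zmat3 and Eda2r at the bottom at week-0 was the same on both scales.

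Reads of the other members except Eda2r were also set against those of Trp53 in the same library, which removes scaling. Per 100 Trp53 reads, there were 18.5 Mdm4 reads at week-0 against 24.9 at week-3 (1.35 times, exact conditional 95% interval 1.12 to 1.62). The same ratio was higher at week-3 for Ccng1, with 4.95 and 7.79 reads (1.57 times, interval 1.14 to 2.16), and for Trp53inp1, with 1.97 and 3.79 reads (1.92 times, interval 1.19 to 3.10). Mdm2 kept close to Trp53, with 14.5 and 12.9 reads (0.890 times, interval 0.707 to 1.11). For Sesn1, Ppm1d and Zmat3 the intervals held no difference. Phlda3 was lower against Trp53, too, with 3.61 and 0.718 reads (0.199 times, interval 0.0771 to 0.433). By counting error alone, these ratios to the mRNA of the factor thus differed in direction between members. Trp53 itself was lower at week-3 (log2 ratio -0.38), whereas the median over all 13689 genes was 0.05. A gene at that median would thus also be higher against Trp53. The intervals of Mdm4, Ccng1 and Trp53inp1 on their own held no change. With an assumed biological coefficient of variation of 0.1, so did that of Trp53 (-0.80 to 0.03). Because all 8 ratios share the Trp53 reads, they are not independent of each other.

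Genes that act on p53 were examined next, in a list of 27 regulators, of which 24 had at least 10 reads. None was at least 2-fold higher at week-3 and 2 were at least 2-fold lower, with 7 intervals above and 9 below no change and a median log2 ratio of -0.02. The 8.33% of regulators that were 2-fold lower compare with 17.9% of all genes, and 29.2% and 37.5% had intervals above and below no change, where 31.7% and 27.3% of all genes did. With TMM scaling these were 6 and 10, with a median of -0.13. The 2 lower genes were Kat5, the acetyltransferase Tip60 (293 and 58 reads, log2 ratio -1.63, 95% interval -2.06 to -1.22), and Trp53bp1, a DNA break response factor that binds p53 (417 and 112 reads, log2 ratio -1.19, 95% interval -1.50 to -0.88). Of the damage kinases, Atm had 94 and 59 reads and a log2 ratio of 0.04 (interval -0.46 to 0.52), and Prkdc 112 and 73 reads and 0.09 (interval -0.35 to 0.53). Atr was higher at week-3, with 64 and 60 reads and a log2 ratio of 0.62 (interval 0.08 to 1.15). Chek1 had 108 and 55 reads and -0.26 (interval -0.76 to 0.22). Chek2 was higher at week-3, with 80 and 83 reads and a log2 ratio of 0.76 (interval 0.30 to 1.22). Cdkn2a, which encodes Arf, an inhibitor of Mdm2, was at 0 reads in both libraries, where 3 reads would be 0.472 and 0.772 reads per 1000000. The p53 relatives Trp63 (0 and 3 reads) and Trp73 (2 and 0 reads) were at or under the floor.

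Other targets of p53 were described by role, in 4 lists of 44 genes. Of the 40 with at least 10 reads, 13 had a ratio of at most 0.5 and 7 of at least 2, with a median log2 ratio of -0.09. These were 32.5% and 17.5% of the 40, where 17.9% and 11.9% of all genes were. Intervals lay below no change for 16 (40%) and above it for 14 (35%), where 27.3% and 31.7% of all genes did. Without Btg2, which is also in the list of 15 immediate-early genes, 12 of 39 were at most 0.5. Whether further targets respond as immediate-early genes was not examined. No set test was run, and the lists were chosen with earlier results known.

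Arrest genes were mostly lower at week-3. Of 11 genes, 6 had a ratio of at most 0.5 and 8 an interval below no change, and the list median was -1.02 on the log2 scale. These are 54.5% and 72.7% of the list, where 17.9% and 27.3% of all genes were. Cdkn1a, which encodes the CDK inhibitor p21 and carries the response element shown above, was counted 14243 times at week-0 and 1439 times at week-3. Its FPKM was 729 and 120, a 6.05-fold lower level (log2 ratio -2.60, 95% interval -2.68 to -2.52). Gdf15, a secreted stress cytokine, had 234 and 10 reads and a log2 ratio of -3.84. Plk2 (984 and 117 reads, log2 ratio -2.36) and Plk3 (592 and 71 reads, log2 ratio -2.35), polo-like kinases of the stress response, were also lower. Btg2, an antiproliferative gene that the immediate-early list holds as well, and Ccng2 were just past the limit, at -1.02 and -1.03. Gtse1, a microtubule protein that restrains p53 and that has a response element at its start, had 129 and 75 reads and a log2 ratio of -0.07 (interval -0.50 to 0.35). Gadd45a, a stress sensor, had 72 and 68 reads and a log2 ratio of 0.63 (interval 0.13 to 1.13). Rprm, a G2 arrest gene, was at 0 reads at week-0 and had 11 at week-3, at least 6.00-fold higher when week-0 is set to 3 reads, and the exact counting interval of 0 and 11 reads began at a log2 ratio of 2.04. The immediate-early genes were lower in the same library, with a median log2 ratio of -1.60, and their part in the lower arrest genes was not tested.

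Death genes split in direction. Of 14 genes, 3 were at least 2-fold higher at week-3, 2 were at least 2-fold lower, 7 had an interval above and 2 below no change, and the median log2 ratio was 0.53 (0.41 with TMM scaling, under which 3 intervals lay below). The 2-fold shares were 21.4% higher and 14.3% lower, beside 11.9% and 17.9% of all genes, and intervals lay above no change for 50% and below it for 14.3%, beside 31.7% and 27.3%. Bbc3, which encodes the BH3-only protein Puma, had 798 and 63 reads, and its FPKM was 43.4 and 5.61 (log2 ratio -2.95, 95% interval -3.35 to -2.58). Tnfrsf10b, a death receptor for TRAIL, had 103 and 16 reads and a log2 ratio of -1.98. Bax, the pore-forming effector, had 928 and 924 reads and its FPKM was 168 and 274, a log2 ratio of 0.70 (interval 0.57 to 0.84). Pmaip1, which encodes Noxa, was higher at week-3 with 47 and 81 reads (log2 ratio 1.49, interval 0.96 to 2.05), as were Bid (1.34), which links death receptors to mitochondria, and Aen (1.21), an exonuclease induced by p53. Rps27l, which carries a response element in its promoter, had 1400 and 1520 reads and a log2 ratio of 0.83 (interval 0.72 to 0.93), although reads of ribosomal protein genes can be shared with near-identical copies. Against Trp53 in the same library, Bbc3 was 0.168 times (interval 0.127 to 0.221) and Bax 2.12 times (interval 1.88 to 2.39) its week-0 ratio.

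Repair and metabolic targets also went both ways. Of 7 repair genes with enough reads, 1 (14.3%) was at least 2-fold higher and 2 (28.6%) at least 2-fold lower at week-3. Of 8 metabolic genes, 2 (25%) were higher and 3 (37.5%) lower by that much, beside 11.9% and 17.9% of all genes. Ddb2, for damage recognition, had 125 and 37 reads and a log2 ratio of -1.05. Rrm2b, for nucleotide supply, had 57 and 17 reads and -1.04 (95% interval -1.91 to -0.23). Polk, a DNA polymerase that bypasses lesions, had 17 and 40 reads and 1.94. Among 8 metabolic genes, the relative of Sesn1, Sesn2, had 123 and 18 reads and a log2 ratio of -2.06 (95% interval -2.86 to -1.34), whereas Sesn1 itself was at -0.05. Prkab1 and Prkab2, which encode subunits of the kinase AMPK, were at -1.74 and -1.02. Prkab2 had only 53 and 16 reads (interval -1.92 to -0.19). Tigar, a phosphatase that restrains glycolysis, had 25 and 76 reads and a log2 ratio of 2.31. Dram1, a lysosomal protein of autophagy, had 19 and 43 reads and a log2 ratio of 1.89. Sco2 was at 0 reads in both libraries.

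p53 lowers many cell cycle genes indirectly, since p21 allows the DREAM complex to repress them. Of 10 such genes, 8 had an interval above and 1 below no change (7 and 1 with TMM or median-of-ratios scaling), and the median log2 ratio was 0.48. Of all genes, 31.7% had an interval above no change, and 26.7% did with TMM scaling. No gene of this list passed 2-fold. Ccnb1, which encodes the mitotic cyclin B1, was closest, with 393 and 480 reads and an FPKM of 7.68 and 15.3. Ccnb2 was lower, at -0.20 (interval -0.35 to -0.05). Cdkn1a was lower in the same library, and whether the differences belong together was not tested.

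**Figure D4:**
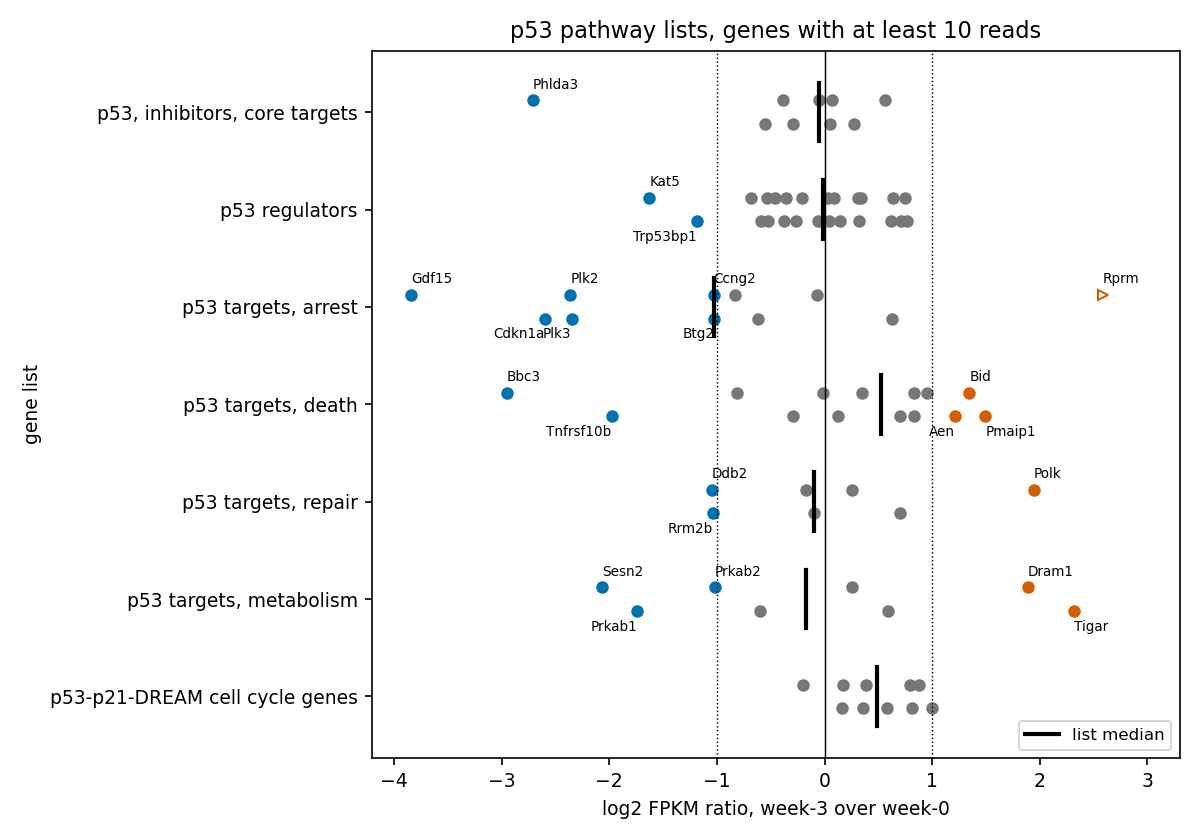
Log2 FPKM ratio of week-3 over week-0 for the genes of each list with at least 10 reads, coloured where the ratio is at least 2 (orange) or at most 0.5 (blue), with list medians as black bars and an open triangle for a bound from 0 reads. The core members lie near 0 except Phlda3, the arrest list has its median at -1.02 and the death list at 0.53.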

How the data were processed

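RNA-seq of sorted LSKs was analysed, with a week-0 and a week-3 library, each from pooled LSKs of 3 mice. To make it, the authors used a SMARTer ultra-low-input cDNA kit, which does not mark strand, trimmed paired-end reads and mapped them to GRCm38 with TopHat2 2.0.9. The counting tool and its annotation release are not given in the sources used here. For each gene, the authors deposited raw read counts and FPKM, which the authors had scaled by a gene length and by the reads counted on genes. The submitters also used edgeR to call genes. With 1 library per time point its dispersion cannot be estimated, so no p-value was computed here.

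Tables were joined by Ensembl identifier. Differences are log2 ratios of FPKM (week-3 over week-0) with exact Clopper-Pearson 95% intervals of the reads, and levels have exact Poisson 95% intervals. Both cover counting error only. Genes with at least 10 reads over both libraries were compared, and limits were an FPKM ratio of 2 or 0.5. A library at 0 reads was set to 3 reads, which gives a bound. Alternatives were TMM scaling (edgeR 4.0.16), median-of-ratios scaling (DESeq2 1.42.0), pseudocounts, other read minimums, fold limits of 1.5 and 0.67, and intervals widened by an assumed biological coefficient of variation. The procedures were tested on simulated data. Software was R 4.3.3 and Python 3.11.15 with scipy 1.17.1, pandas 2.3.3, numpy 2.4.6 and, for figures, matplotlib 3.10.9. Levels per merged exon length, the KEGG list and the targets without Btg2 were alternatives chosen after seeing the data.

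The members and the gene lists were chosen with earlier results of these data known. Named genes are the members, a fixed set of pathway genes, and up to 4 genes per list and direction with the FPKM ratios farthest from 1 past the limits of 2 and 0.5. Outside this rule, Btg2, Ccng2, Atr, Prkdc, Gtse1, Gadd45a, Rps27l, Ccnb1, Ccnb2 and genes at or under the floor were chosen after their values were seen. Results for 2 further genes are not reported here. Strand, merged exons and transcript lengths come from GENCODE M21, also on GRCm38, where 8 of the 10 members have the same start and end as in the deposited tables. Promoters come from RefSeq (GRCm38.p6). The search for response elements was planned over a wider window around each gene start and was run on the promoter table, since no genome of the build was used here.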

Additional observations from a re-analysis of the deposited data

How the results depend on the processing

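Of 59 counts and medians recomputed under an alternative, 57 stayed within 1.5 times the reported count or within the spread of the genes around the reported median. Several of these could hardly move. The other read minimums kept the same 9 members, and scaling moved every log2 ratio by only -0.11 or -0.09. With fold limits of 1.5 and 0.67, 14 of the p53 targets in the 4 lists were higher, in place of 7. With an assumed biological coefficient of variation of 0.4, the interval of 1 member, Phlda3, lay below no change in place of 3. With 0.1, the intervals of Mdm2 and Phlda3 did and that of Trp53 did not. Of 36 recomputed log2 ratios of single members, 35 lay inside the reported counting interval, and the exception was Trp53 with TMM scaling, at -0.50. The ratio of Phlda3 was -1.86 with a pseudocount of 1 FPKM, inside its wide interval. Leaving out a replicate could not be done with 1 library per time point. No paired analysis was possible because each time point has 1 library. Depth limits Zmat3, Trp53inp1 and Phlda3 at week-3 most, and Eda2r cannot be compared at all.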

Other observations

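The deposited tables place 67 genes in the KEGG p53 signalling pathway, a list that was taken up after seeing the data and includes Trp53, Mdm2, Mdm4, Ppm1d, Ccng1, Zmat3 and Sesn1 as well as genes of the lists above. Of its 59 genes with at least 10 reads, 8 were at least 2-fold higher and 11 at least 2-fold lower at week-3, with 18 intervals above and 22 below no change and a median log2 ratio of -0.05. The shares past 2-fold, 13.6% higher and 18.6% lower, are close to the 11.9% and 17.9% of all genes. Intervals lay above no change for 30.5% of the 59 and below it for 37.3%, where 31.7% and 27.3% of all genes did. Of the 31 genes in none of the lists above, 25 had at least 10 reads, and 5 (20%) were past the limit in each direction. The following were named after their values were seen. Thbs1, which encodes a secreted inhibitor of angiogenesis, had 59 reads at week-0 but 1 read at week-3, a log2 ratio of -5.17 (95% interval -10.50 to -2.64). Gadd45b, a stress sensor related to Gadd45a, had 1331 and 94 reads and a log2 ratio of -3.11 (95% interval -3.43 to -2.81), in contrast to 0.63 for Gadd45a. Rrm2, the ribonucleotide reductase subunit of dividing cells, had 247 and 658 reads and a log2 ratio of 2.12 (95% interval 1.91 to 2.34), whereas its p53-regulated relative Rrm2b was at -1.04.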
